A study of Mus musculus with 19 samples.

Results

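The comparison set AP-2εCre+/- heterozygotes (AP-2εCre Het, n = 3) against the Smad4flox/flox controls of the same line (n = 3). These are 6 of the 19 RNA-seq libraries of the series, chosen by their labels and not by any measured value. Each library was made from polyadenylated RNA of the whole vomeronasal organ (VNO) of a female mouse at postnatal day 21. The series was made to follow the loss of Smad4, a transducer of BMP and TGF-β signals, in vomeronasal sensory neurons, and the heterozygotes are its Cre controls. In the heterozygotes 1 allele of Tfap2e carries Cre, a targeted allele that drives recombination in maturing basal neurons, and the labels give them no floxed Smad4. The controls have both Tfap2e alleles and 2 floxed, unrecombined Smad4 alleles; the labels call them wild type. The 2 groups therefore differ at both loci, and in whatever strain background each allele carries, and these differences cannot be told apart in this comparison alone. Libraries of 2 other kinds are set beside it: AP-2εCre Smad4 cKO mice (AP-2εCre+/- Smad4flox/flox, n = 3), which have the Cre allele and the floxed alleles together, and the OMPCre line, with its own Smad4flox/flox controls (n = 3) and OMPCre+/- heterozygotes (n = 3), where Cre sits in Omp, a gene of mature olfactory neurons. A further library titled as an AP-2εCre heterozygote has the genotype label of the conditional knockout and was not used.

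The VNO detects pheromones with 2 main classes of neurons. Apical neurons express V1r receptors and the G protein subunit Gαi2, and basal neurons express V2r receptors, Gαo and, in many cells, the H2-Mv class of non-classical MHC molecules. Tfap2e encodes AP-2ε, a transcription factor that starts in immature neurons committed to the basal fate and is known to maintain basal identity. The cell type label names immature basal neurons, but the tissue was the whole organ, and markers of apical neurons, sustentacular cells, glands, vessels and blood were all read. In such bulk libraries fewer cells of a type and less RNA per cell cannot be told apart.

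The deposited values were salmon estimated counts, summed here per gene. Levels are CPM, counts per 1000000 counts of a library after TMM scaling, and p-values come from the quasi-likelihood test of edgeR, adjusted by Benjamini and Hochberg's method over all 17827 genes tested. The control libraries held 45084153, 47341642 and 43385516 estimated counts and the heterozygotes 71511460, 64672632 and 56775057, so every heterozygote was read more deeply than every control, and the part of depth in the results was not tested. The labels call the libraries biological replicates. Heterozygote 1 stood apart in several cell-type lists: the summed level of 10 sustentacular genes was 4813 CPM there against 2653 to 3487 CPM in the other 5 libraries, and that of 14 neurogenesis genes was 1297 CPM against 1641 to 1840 CPM. Where leaving out that library moved a value by over 1.5 times, the value without it is given for the main lists and for some single genes. Of all genes tested, 4 passed an adjusted p of 0.05, which is 0.0224%. The median log2 fold change over all genes was 0.01.

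Tfap2e, on the minus strand at chr4:126716006-126736240 (GRCm38), was measured at close to 50% of its control level in the heterozygotes. It had 15.5, 14.01 and 16.6 CPM in the controls and 5.44, 8.19 and 8.88 CPM in the heterozygotes, so the groups did not overlap. The mean was 15.4 ± 1.3 CPM against 7.50 ± 1.82 CPM (SD, n = 3 each), a ratio of 0.488 and a log2 fold change of -1.03 with an SE of 0.20. In edgeR the unadjusted p was 0.000974 and the adjusted p 0.303, over a range of 0.000963 to 0.581 among other fits and filters and of 0.259 to 0.934 with single libraries left out. DESeq2 (adjusted p = 0.000963) and an edgeR fit of all 18 mapped libraries (adjusted p = 0.0138) passed the threshold. The difference in Tfap2e thus passed or missed the threshold by the choice of fit, while its size stayed near 1 log2 unit. The cKO libraries, which carry the same Cre allele, had 11.2, 10.0 and 12.5 CPM, above every heterozygote and below every control. For the OMPCre line, where both Tfap2e alleles are intact by the labels, the controls had 16.2, 15.7 and 18.7 CPM and the heterozygotes 16.3, 13.7 and 13.7 CPM (log2 fold change -0.21). The 2 lines' differences in Tfap2e differed by -0.82 with an SE of 0.24 (adjusted p = 0.764 in edgeR). Smad4 overlapped between the groups, with 81.0, 70.5 and 39.6 CPM in the controls and 43.9, 79.7 and 41.5 CPM in the heterozygotes (adjusted p = 0.995).

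The region around the Tfap2e start is shown because it is the locus that the Cre allele alters. All promoter sequences here are RefSeq's for GRCm38.p6, from 250 bases before to 50 after the annotated start, 5′ to 3′ on the gene's strand. The pattern GCCNNNGGC, the palindrome that AP-2 factors are known to bind, was searched in them, and capitals mark it where it occurs. It reads the same on both strands, so 1 search covers both. The Tfap2e window, at chr4:126736220-126736519 on the minus strand, has 60.3% G and C and no match.

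Tfap2e: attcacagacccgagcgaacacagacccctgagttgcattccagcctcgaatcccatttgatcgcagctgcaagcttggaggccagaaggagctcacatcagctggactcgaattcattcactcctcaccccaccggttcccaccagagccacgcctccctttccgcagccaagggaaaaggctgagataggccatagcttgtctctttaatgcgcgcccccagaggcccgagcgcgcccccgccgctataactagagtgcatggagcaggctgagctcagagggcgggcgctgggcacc

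The genes that mark basal neurons were, as a list, lower in the heterozygotes than in the controls, although no member passed the adjusted test in edgeR. Of 8 listed genes, all tested, 7 had a negative log2 fold change, and 5 (Tfap2e among them) had every heterozygote below every control, against 5.03% of all genes tested. The same 5 had an unadjusted p under 0.05 and lower levels, against 2.52% of all genes. With DESeq2, 2 of the 8 were called lower (Tfap2e and Calr4), against 0.464% of the genes with an adjusted p there. Their median log2 fold change was -0.46, and in the OMPCre line it was -0.03 with no member separated in either direction. The summed level of the list in CPM, however, was lower in both lines (in TPM the OMPCre groups overlapped). It was 1225, 1103 and 1002 CPM against 905, 949 and 808 CPM in the AP-2εCre line (a ratio of 0.799) and 1066, 1009 and 1002 CPM against 977, 974 and 899 CPM in the OMPCre line (a ratio of 0.926). The ratio of the basal to the apical sum was also lower in both, 0.829 and 0.855 times that of the controls in CPM, so this ratio does not set the AP-2εCre line apart, and in TPM it overlapped between the AP-2εCre groups. Leaving out heterozygote 1 gave a median of -0.31 and again 5 of 8 without overlap, against 7.95% of all genes.

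Gnao1, which encodes Gαo, the G protein subunit that couples V2r receptors, had 244, 206 and 220 CPM in the controls and 135, 191 and 186 CPM in the heterozygotes (log2 fold change -0.38, SE 0.15, adjusted p = 0.931 in edgeR). All 3 heterozygotes were below all 3 controls, with heterozygote 1 the lowest, and without it the log2 fold change was -0.24. Robo2, an axon guidance receptor that directs basal axons to the posterior accessory olfactory bulb, had 134, 120 and 115 CPM against 71.6, 98.5 and 92.7 CPM (log2 fold change -0.49, SE 0.14). Kirrel3, an adhesion molecule with a part in the sorting of basal axons, had 81.8, 71.6 and 72.2 CPM against 34.3, 58.3 and 60.7 CPM (log2 fold change -0.55, SE 0.21, and -0.33 without heterozygote 1). Neither gene overlapped between the groups. Calr4, a calreticulin family chaperone of basal neurons, showed the next lowest ratio after Tfap2e in this list. It had 259, 238 and 243 CPM in the controls and 103, 173 and 170 CPM in the heterozygotes, a log2 fold change of -0.72 with an SE of 0.20 (adjusted p = 0.673 in edgeR and 0.0145 in DESeq2).

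The other 3 basal genes overlapped between the groups. Bcl11b, a transcription factor needed for basal neuron differentiation, had a log2 fold change of -0.14, and Gng8, a G protein γ subunit, one of -0.42. B2m, the light chain that pairs with MHC class I and H2-Mv heavy chains and is made by many cell types, had 378, 344 and 261 CPM against 490, 325 and 213 CPM. Per transcript length, the basal genes spanned a wide range of control levels, from 418 TPM for B2m and 377 TPM for Gnao1 to 6.69 TPM for Tfap2e and 3.61 TPM for Bcl11b. Robo2 and Calr4 differed in their cKO values. Robo2 had 131, 111 and 138 CPM in the cKO libraries, within or above the range of its controls except for 1 library. Calr4 had 163, 141 and 194 CPM there, below all of its controls.

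**Figure D1:**
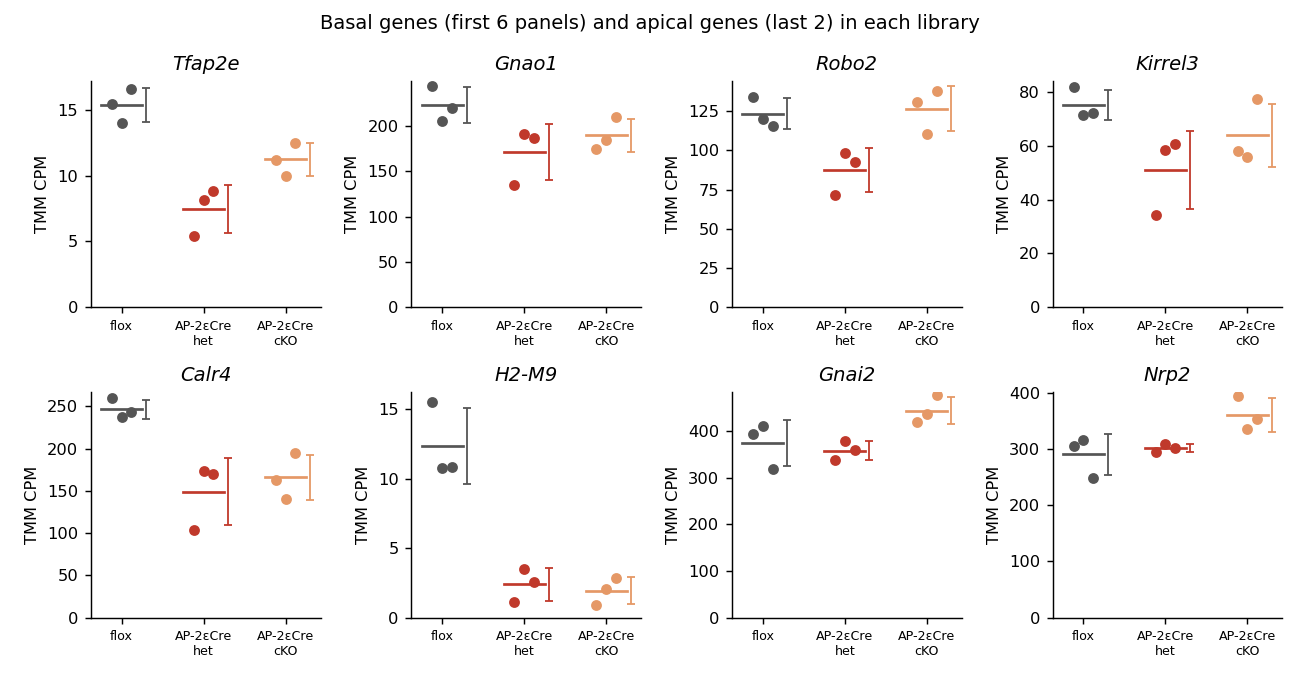
Level in TMM CPM (y axis from 0) of 6 basal genes and 2 apical genes in each of the 3 flox, AP-2εCre heterozygote and AP-2εCre cKO libraries; points are libraries, horizontal lines means, and vertical bars SD. Tfap2e, Gnao1, Robo2, Kirrel3, Calr4 and H2-M9 have every heterozygote below every flox library, while Gnai2 and Nrp2 overlap.

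The apical genes did not separate in this way. None of 6 (Gnai2, Meis2, Nrp2, Kirrel2, Pde4a and Ncam2) had groups that did not overlap, against 5.03% lower and 4.84% higher among all genes. None had an unadjusted p under 0.05, against 2.52% and 2.66%, and the median log2 fold change was -0.05. For 6 genes such counts are near the shares of all genes. Gnai2, which encodes Gαi2 of the V1r pathway, had 394, 410 and 319 CPM in the controls and 338, 378 and 359 CPM in the heterozygotes. Nrp2, the semaphorin receptor of apical axons, had 306, 316 and 249 CPM against 295, 309 and 301 CPM. The log2 fold changes were -0.06 for Gnai2 and 0.06 for Nrp2, and each turned sign when single libraries were left out (-0.16 to 0.01 for Gnai2 and -0.04 to 0.12 for Nrp2). The other AP-2 factors did not separate. Tfap2a had 7.59, 7.24 and 6.91 CPM against 12.1, 6.27 and 8.54 CPM. Tfap2c had 8.50, 7.55 and 9.24 CPM against 12.5, 8.57 and 13.0 CPM (log2 fold change 0.43, adjusted p = 0.961). Tfap2b was under 1 CPM in all 6 libraries, and Tfap2d did not pass the filter on low counts.

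The V2r receptors, the receptor family of basal neurons, were lower in the heterozygotes across almost the whole family. The annotation has 121 V2r genes, of which 119 passed the filter and 116 had at least 10 counts in all 6 libraries. No V2r gene passed the adjusted test in edgeR. Of the 119, 111 had a negative and 8 a positive log2 fold change. Every heterozygote was below every control for 59 genes, 49.6% against the 5.03% of all genes, and above every control for 2 genes (Vmn2r122 and Vmn2r22), against 4.84%. The log2 fold change of 0.49 of Vmn2r22 was 0.09 with length-scaled TPM counts and 0.28 without heterozygote 2. An unadjusted p under 0.05 was reached by 57 genes that were lower and 2 that were higher, against 2.52% and 2.66% of all genes. DESeq2 called 30 V2r genes lower and 1 higher of 120, against a background of 0.464% and 0.37%, and the edgeR fit of 18 libraries called 9 lower of 120, against 0.128%. The median log2 fold change was -0.64, with an interquartile range of -0.83 to -0.39, and it was -0.64 over the 116 genes with at least 10 counts everywhere.

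The family sum separated the groups in CPM but not in the deposited TPM. The V2r genes together held 4709, 3900 and 4796 CPM in the controls and 1973, 3565 and 3535 CPM in the heterozygotes. On this scale no heterozygote reached the lowest control, and heterozygote 1 was far below the other 2. In the deposited TPM, which are divided by transcript length and carry no TMM factors, the sums were 691, 638 and 982 against 315, 684 and 648, so that heterozygotes 2 and 3 lay above control 2. The V1r genes together held 2189, 1865 and 2080 CPM against 1787, 2412 and 2113 CPM, with full overlap. The ratio of V2r to V1r was 2.15, 2.09 and 2.31 in the controls and 1.10, 1.48 and 1.67 in the heterozygotes, and it separated the groups in TPM too (1.09, 0.997 and 1.22 against 0.566, 0.771 and 0.894). In the cKO libraries it was 1.01, 1.07 and 1.20, near heterozygote 1. The OMPCre line had ratios of 2.24, 2.06 and 2.24 in the controls and 2.02, 2.005 and 2.05 in the heterozygotes, which were also all below their controls, by a smaller margin. An exact permutation test of 3 against 3 libraries cannot go below a two-sided p of 0.1, so no such test of a single value could pass the threshold.

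**Figure D2:**
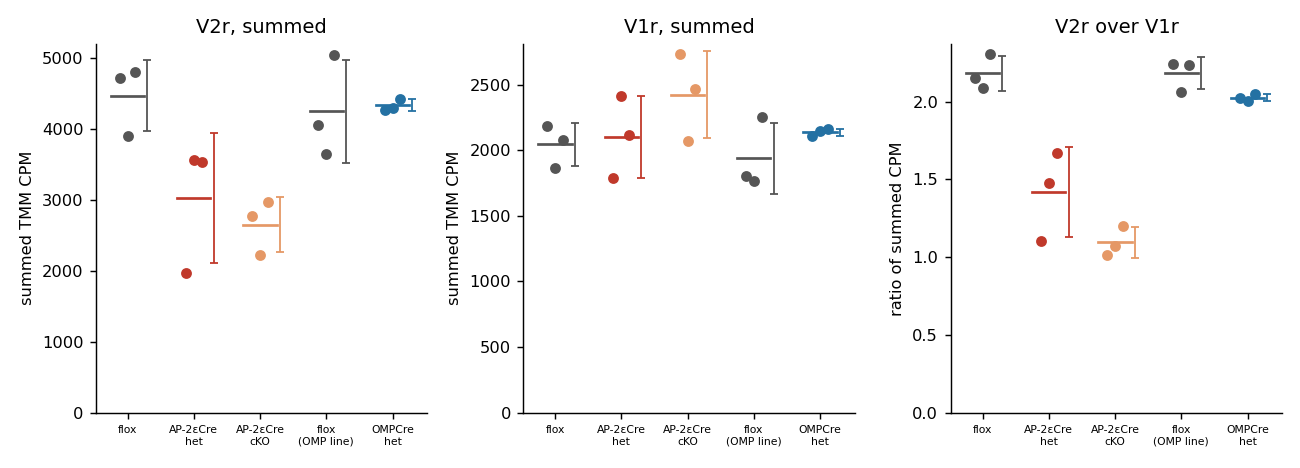
Summed V2r level, summed V1r level (both in TMM CPM, y axis from 0) and their ratio in each library of the AP-2εCre line (flox, heterozygote, cKO) and the OMPCre line (flox, heterozygote); points are libraries, lines means and bars SD. The AP-2εCre heterozygotes lie below their controls in V2r (1973 to 3565 CPM against 3900 to 4796 CPM) and in the ratio (1.10 to 1.67 against 2.09 to 2.31), and overlap them in V1r; in TPM the V2r sums overlap as well.

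Heterozygote 1 was below all 3 controls for 108 of 119 V2r genes, heterozygote 2 for 74 and heterozygote 3 for 77, against 27.2%, 22.7% and 23.8% of all genes. Leaving out heterozygote 1 therefore moved the family median from -0.64 to -0.41, a factor of over 1.5, while the number of genes without overlap was again 59, against 7.95% of all genes tested in the 5 remaining libraries. The keratinocyte markers, genes of squamous epithelium, were highest in heterozygotes 1 and 3. Their sum over 5 genes was 171, 187 and 338 CPM in the controls and 471, 213 and 621 CPM in the heterozygotes, 3 of the 5 had an unadjusted p under 0.05 and were higher (2.66% of all genes), DESeq2 called 2 of them higher, and Krt10 had 38.1, 2.42 and 96.5 CPM in the heterozygotes. In heterozygote 2, where Krt10 was within the controls' range of 1.58 to 3.13 CPM, 74 V2r genes (62.2%) were below all controls, against 22.7% of all genes. In the same library 81 of 169 V1r genes (47.9%) were above all controls, against 23.1% of all genes. In heterozygote 1, by contrast, 71 V1r genes (42.0%) were below all controls, against 27.2% of all genes. Above all controls there were 25 (14.8%), against 28.4%. The part of the keratinocyte genes in the V2r result was not tested.

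The lower levels were not limited to rare receptors. The 59 less expressed V2r genes had a median log2 fold change of -0.65 and the 60 more expressed ones -0.59. Below -0.5 were 77 of 119 V2r genes and 11 of 169 V1r genes, while the interquartile range over all genes was -0.12 to 0.14. The lower V2r levels were also spread over the V2r clusters of the genome. The median was -0.59 on chromosome 7 (49 genes, 22 without overlap and lower), -0.69 on chromosome 17 (31 genes, 20), -0.57 on chromosome 5 (11 genes, 2), -0.73 on chromosome 6 (9 genes, 6), -1.10 on chromosome 10 (8 genes, 5) and -0.53 on chromosome 3 (7 genes, 4). The pair on chromosome 14 had a median of -0.16 and both overlapped. These counts are to be read against the 5.03% of all genes that were lower without overlap. The 7 genes of chromosome 3 are the family C genes, whose median depended on heterozygote 1 as described below. The V2r median of the OMPCre line was -0.03, with 7 genes lower and 4 higher without overlap, against 5.07% and 6.52% of all genes tested there. The 2 lines share no libraries. In the test of the difference between the lines, 47 of 120 V2r genes had a more negative log2 fold change in the AP-2εCre line at an unadjusted p under 0.05, against 2.38% of all genes, 1 had a more positive one, and none passed the adjusted test.

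**Figure D3:**
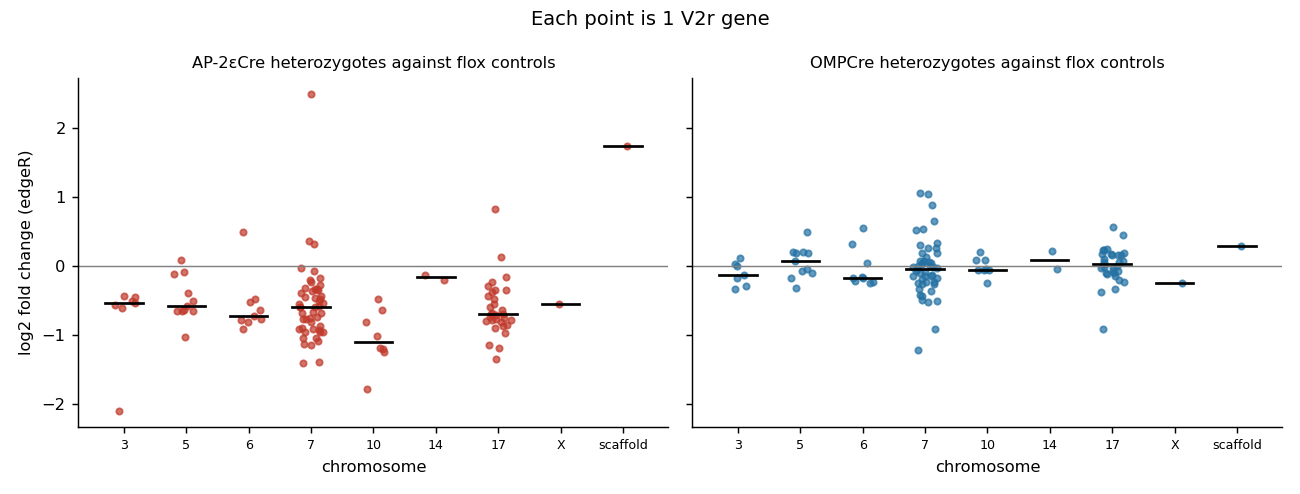
Log2 fold change of each tested V2r gene (y axis, edgeR) by the chromosome it lies on (x axis), for AP-2εCre heterozygotes against their flox controls (left) and OMPCre heterozygotes against theirs (right); each point is a gene and black lines are medians. In the AP-2εCre line the medians of chromosomes 3, 5, 6, 7, 10 and 17 lie between -1.10 and -0.53, and in the OMPCre line the points lie around 0.

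Among single V2r genes, Vmn2r34 and Vmn2r98 had some of the smallest p-values. Vmn2r34 (chr7:7670804-7689513) had 59.2, 42.7 and 64.1 CPM in the controls and 22.8, 27.3 and 28.1 CPM in the heterozygotes, a log2 fold change of -1.08 with an SE of 0.17. Its adjusted p was 0.256 in edgeR, 1.46e-06 in DESeq2 and 0.0118 in the fit of 18 libraries. The 3 heterozygotes were close to each other, and close to the cKO libraries at 24.0, 22.1 and 27.6 CPM. Vmn2r98 had 11.2, 9.31 and 11.8 CPM against 3.39, 4.61 and 4.75 CPM, a log2 fold change of -1.34 with an SE of 0.19 (adjusted p = 0.223 in edgeR). Vmn2r116, the receptor of the male tear peptide ESP1, had 27.6, 25.5 and 27.3 CPM in the controls and 11.1, 16.99 and 13.0 CPM in the heterozygotes (log2 fold change -0.97, SE 0.16). It passed the edgeR threshold only with heterozygote 2 left out, among the single-library omissions (adjusted p = 0.0425).

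The V2r genes of chromosome 10, which had the lowest median, lie in 2 clusters far apart, Vmn2r80 to Vmn2r83 (from position 79148769) and Vmn2r84 to Vmn2r87 (from position 130377925). In the second, Vmn2r85 had 4.69, 5.73 and 6.11 CPM in the controls and 1.05, 1.80 and 1.98 CPM in the heterozygotes (log2 fold change -1.77). Vmn2r86 had 47.7, 34.8 and 41.0 CPM against 12.6, 18.8 and 22.8 CPM (log2 fold change -1.19). In the first, Vmn2r81 had 94.8, 68.0 and 88.4 CPM against 22.1, 46.4 and 37.3 CPM (log2 fold change -1.24). In each the highest heterozygote was below the lowest control. Near-identical coding sequences within these clusters share reads, so values of single V2r genes are less certain than the family's sum.

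The V2r genes with the most reads included some with smaller differences. Vmn2r30 had 241, 165 and 181 CPM against 84.3, 147 and 172 CPM, and overlapped (log2 fold change -0.54, and -0.29 without heterozygote 1). Vmn2r20 had 135, 130 and 151 CPM against 46.2, 82.4 and 91.7 CPM and did not overlap (log2 fold change -0.91). The clearest exception in direction was Vmn2r122, which the files place on an unplaced scaffold. It had 16.0, 21.8 and 23.6 CPM in the controls and 41.1, 92.1 and 70.6 CPM in the heterozygotes (log2 fold change 1.73, adjusted p = 0.284 in edgeR and 1.99e-08 in DESeq2, with 0.0319 in edgeR without heterozygote 1). It had 99.9, 65.5 and 96.4 CPM in the OMPCre line's flox controls. The pseudogene Vmn2r-ps159 followed it in each library, with 17.2, 19.9 and 26.1 CPM against 36.9, 85.1 and 59.4 CPM. The V2r genes Vmn2r47 and Vmn2r61 did not pass the filter.

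The promoters of 3 genes named for their low levels in the heterozygotes are shown here, followed by 2 V2r promoters that hold the AP-2 pattern. Vmn2r34 (chr7:7689349-7689648, minus strand), Vmn2r98 (chr17:19053243-19053542, plus strand) and H2-M9 (chr17:36642595-36642894, minus strand) had no match.

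Vmn2r34: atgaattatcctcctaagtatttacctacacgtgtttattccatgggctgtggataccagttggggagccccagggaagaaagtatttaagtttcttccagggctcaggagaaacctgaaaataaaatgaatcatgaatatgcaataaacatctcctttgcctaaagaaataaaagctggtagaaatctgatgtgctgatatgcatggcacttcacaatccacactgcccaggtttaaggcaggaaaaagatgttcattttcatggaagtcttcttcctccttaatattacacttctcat

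Vmn2r98: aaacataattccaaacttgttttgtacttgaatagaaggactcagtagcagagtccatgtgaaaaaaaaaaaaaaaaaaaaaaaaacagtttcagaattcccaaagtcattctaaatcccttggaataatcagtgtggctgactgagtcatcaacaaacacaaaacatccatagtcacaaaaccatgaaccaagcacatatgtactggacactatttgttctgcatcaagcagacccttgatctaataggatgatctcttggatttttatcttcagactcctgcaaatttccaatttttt

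H2-M9: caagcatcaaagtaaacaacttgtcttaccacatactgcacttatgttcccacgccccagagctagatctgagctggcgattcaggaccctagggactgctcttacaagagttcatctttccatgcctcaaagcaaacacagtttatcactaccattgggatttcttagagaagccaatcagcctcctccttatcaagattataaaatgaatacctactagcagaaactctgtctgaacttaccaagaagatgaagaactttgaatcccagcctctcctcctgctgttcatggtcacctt

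In Vmn2r105 (chr17:20234823-20235122, minus strand) the pattern starts at base 10 of the window, and in Vmn2r75 (chr7:86171675-86171974, minus strand) at base 46.

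Vmn2r105: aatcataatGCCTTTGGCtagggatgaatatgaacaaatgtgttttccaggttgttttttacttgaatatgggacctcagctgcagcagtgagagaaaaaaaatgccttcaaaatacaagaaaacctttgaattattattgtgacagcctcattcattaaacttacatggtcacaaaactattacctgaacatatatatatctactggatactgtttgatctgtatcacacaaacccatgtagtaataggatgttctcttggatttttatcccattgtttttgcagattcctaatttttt

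Vmn2r75: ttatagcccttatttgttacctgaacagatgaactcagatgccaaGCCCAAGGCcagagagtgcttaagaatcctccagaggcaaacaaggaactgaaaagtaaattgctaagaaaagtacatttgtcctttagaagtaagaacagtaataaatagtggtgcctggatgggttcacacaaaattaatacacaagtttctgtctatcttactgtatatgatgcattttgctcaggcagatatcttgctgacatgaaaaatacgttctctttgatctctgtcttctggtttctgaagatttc

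The V2r genes with the pattern were mixed. Of the 8, 4 (Vmn2r105, Vmn2r2, Vmn2r66 and Vmn2r75) were lower in every heterozygote than in every control and 4 overlapped, a share close to the 49.6% of the whole V2r family. The overlapping genes had log2 fold changes of -0.54 for Vmn2r121, -0.20 for Vmn2r88, -0.12 for Vmn2r89 and 0.09 for Vmn2r15. Vmn2r105 had 80.9, 71.4 and 74.7 CPM against 29.8, 45.6 and 50.4 CPM (log2 fold change -0.85), and Vmn2r75 had 11.8, 7.77 and 15.8 CPM against 2.19, 7.20 and 6.62 CPM (log2 fold change -1.14). The pattern was nonetheless rare in this family. It was found in 8 of 115 V2r promoter windows (6.96%), in none of 205 V1r windows, in none of 10 H2-Mv windows and in 1 of 12 windows of the basal genes, against 5450 of 32851 windows of all genes (16.6%). The V2r windows were also poorer in G and C, with a median of 38.0% against 52.7% for all genes. A match or its absence in these 300 bases is a description of the sequence only.

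The family C V2r genes encode receptors that are made together with a member of the other V2r families in the same basal neuron. All 7 had a negative log2 fold change, and 4 (Vmn2r1, Vmn2r2, Vmn2r5 and Vmn2r7) had every heterozygote below every control, against 5.03% of all genes. At an unadjusted p under 0.05 there was 1 of 7, against 2.52% of all genes, and DESeq2 and the fit of 18 libraries called none. Their sum was 712, 581 and 658 CPM in the controls and 245, 568 and 542 CPM in the heterozygotes. In CPM heterozygotes 2 and 3 were just below the lowest control, and in TPM the groups overlapped (107, 103 and 136 against 39.5, 110 and 103). Without heterozygote 1 the median log2 fold change was -0.22 in place of -0.53. Vmn2r1 had 132, 117 and 126 CPM against 64.2, 111 and 103 CPM, and its log2 fold change of -0.43 was -0.22 without heterozygote 1. Vmn2r7 had 179, 142 and 164 CPM against 64.5, 140 and 138 CPM, with log2 fold changes of -0.50 and, without heterozygote 1, -0.22. For Vmn2r2 these were -0.45 and -0.13. Vmn2r5 differed by more, with 19.1, 14.6 and 9.40 CPM against 0.570, 5.69 and 3.79 CPM, but its SE was large (log2 fold change -2.09, SE 0.69, adjusted p = 0.819). In the cKO libraries Vmn2r5 had 0.340, 1.29 and 0.543 CPM. The 112 tested V2r genes outside family C had a median of -0.65, with 55 lower and 2 higher without overlap.

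H2-Mv genes, which encode MHC class I-like molecules found on a subset of V2r neurons, had a negative log2 fold change in all 9 members. For 5 (H2-M1, H2-M9, H2-M10.4, H2-M10.5 and H2-M11) every heterozygote was below every control, against 5.03% of all genes, and the median log2 fold change was -1.15. The OMPCre line had a median of -0.11, with 2 of 9 lower without overlap, against 5.07% of all genes there. The H2-Mv sum was 218, 173 and 197 CPM in the controls and 48.5, 143 and 117 CPM in the heterozygotes. Leaving out heterozygote 1 changed the log2 ratio of this sum from -1.07 to -0.60, left the same number of 5 genes lower without overlap and added 2 that were higher, against 7.95% and 8.19% of all genes. Relative to the V1r sum in CPM, the H2-Mv sum was lower without overlap in both lines. This ratio was 0.493 times that of the controls in the AP-2εCre line and 0.775 times in the OMPCre line.

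H2-M9 (chr17:36639285-36642666), whose promoter is printed with those of the V2r genes, had the lowest ratio. It had 15.5, 10.7 and 10.9 CPM in the controls and 1.14, 3.499 and 2.58 CPM in the heterozygotes, with 0.943, 2.06 and 2.85 CPM in the cKO libraries. The log2 fold change was -2.36 with an SE of 0.39 (adjusted p = 0.284 in edgeR, 2.64e-08 in DESeq2 and 0.0258 in the fit of 18 libraries). H2-M9 in the OMPCre line did not separate, with 6.35, 8.71 and 6.94 CPM in controls and 7.57, 6.63 and 5.67 CPM in heterozygotes, and the difference between the lines was -2.21 with an SE of 0.47 (adjusted p = 0.65 in edgeR). H2-M1 had 23.4, 18.3 and 19.7 CPM against 2.76, 10.7 and 5.03 CPM (log2 fold change -1.73, SE 0.44). H2-M10.5 had 42.3, 49.9 and 37.4 CPM against 6.77, 24.0 and 17.7 CPM, and H2-M10.4 had 36.2, 42.1 and 27.4 CPM against 6.05, 20.7 and 14.5 CPM. The other members H2-M10.1, H2-M10.2, H2-M10.3 and H2-M10.6 overlapped, with log2 fold changes of -0.03, -0.37, -0.55 and -0.21. The 2 members that were higher without overlap when heterozygote 1 was left out are among these. The negative values of those 2 therefore rested on heterozygote 1.

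Of the formyl peptide receptor genes of the VNO, 1 of 5 was lower and 1 higher without overlap, against 5.03% and 4.84% of all genes. Fpr3 had 3.55, 5.13 and 5.41 CPM in the controls and 1.59, 2.53 and 1.84 CPM in the heterozygotes (log2 fold change -1.24, SE 0.29, adjusted p = 0.502 in edgeR and 0.0146 in DESeq2). Fpr-rs4, near 1 CPM in all libraries, had a log2 fold change of 0.63. Fpr-rs3 had 6.49, 6.51 and 5.76 CPM against 4.93, 6.46 and 4.75 CPM and overlapped.

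The V1r receptors of apical neurons did not share the shift of the V2r family. Of 169 tested V1r genes, 5 were lower and 12 higher without overlap (2.96% and 7.10%, against 5.03% and 4.84% of all genes), the median log2 fold change was 0.03, and none passed the adjusted test in edgeR or DESeq2, with 2 lower and 7 higher at an unadjusted p under 0.05 in edgeR, against 2.52% and 2.66% of all genes. These counts moved with single libraries. Without heterozygote 1, 39 V1r genes (23.1%) were higher without overlap, against 8.19% of all genes, and without heterozygote 2, 28 (16.6%) were lower, against 9.23%. Neuron genes common to both classes varied mainly with heterozygote 1. Omp, the olfactory marker protein of mature neurons, had 397, 443 and 473 CPM against 293, 435 and 445 CPM. Trpc2, the transduction channel of vomeronasal neurons, had 106, 101 and 104 CPM against 50.1, 102 and 130 CPM. Of 14 neurogenesis genes, 1 was lower without overlap, and of 28 SMAD and BMP pathway genes none separated, with medians of -0.07 and 0.10. The 12 transduction genes had a median of -0.07 and 1 higher without overlap. These shares are to be read against 5.03% lower and 4.84% higher without overlap among all genes.

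Lists of other cell types of the organ were also counted, against the same 5.03% lower and 4.84% higher among all genes. The summed level of the lists for sustentacular, ciliated, endothelial, immune, glial and red blood cells and for bone overlapped between the groups, and no member of these 7 lists was lower without overlap. Of 9 ciliated cell genes 1 was higher without overlap (median 0.11). Of 5 smooth muscle genes 1 was lower without overlap (median -0.15), and of 16 gland genes 1 was higher (median -0.09). The 10 cell cycle genes all had a positive log2 fold change (median 0.43), with 1 of 10 without overlap and none at an unadjusted p under 0.05. Of 7 skeletal muscle genes, 2 passed the filter, and 1 of them was lower without overlap (median -0.79). Of 8 immediate early genes 1 was higher without overlap (median 0.36), and of 9 main olfactory neuron genes none separated (median -0.06). Of 10 tested genes that the study itself names, a list drawn from these samples and so no independent evidence, 2 were lower and 1 higher without overlap. Of 9 genes known to vary between mouse strains, 1 was lower and 1 higher without overlap. The part of these cell types in the results was not tested.

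Outside the receptor families, further genes were named for small p-values without overlap or after their values were seen. Each was lower in every heterozygote than in every control, which this choice partly fixed. None passed the adjusted test in the main edgeR fit. Rab3c, a small GTPase of synaptic vesicles, had 42.9, 30.4 and 34.3 CPM in the controls and 5.48, 10.097 and 10.08 CPM in the heterozygotes. That is a ratio of 0.238, or a log2 fold change of -2.07 with an SE of 0.26 (adjusted p = 0.132 in edgeR, 3.55e-14 in DESeq2 and 0.00869 in the fit of 18 libraries). With length-scaled TPM counts the log2 fold change of Rab3c was -1.34. With heterozygote 1 left out, edgeR called it (adjusted p = 0.0319). The cKO libraries, at 14.2, 10.16 and 16.1 CPM, were likewise below every control. Rab3c in the OMPCre line had 26.0, 27.7 and 39.2 CPM against 23.5, 22.0 and 24.6 CPM, and the difference between the lines was -1.66 (adjusted p = 0.527).

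Sphkap, an anchoring protein for protein kinase A, had 58.4, 49.7 and 49.8 CPM against 11.8, 16.2 and 21.9 CPM (log2 fold change -1.66, SE 0.21, adjusted p = 0.145 in edgeR and 0.007 with 18 libraries). Without heterozygote 3 its adjusted p was 0.0497. Fam19a1, a secreted chemokine-like neuropeptide, had 14.9, 13.99 and 14.1 CPM against 3.22, 5.52 and 6.20 CPM (log2 fold change -1.52, SE 0.24, adjusted p = 0.271 in edgeR and 0.00733 with 18 libraries). In the cKO libraries Sphkap had 19.3, 17.9 and 18.7 CPM and Fam19a1 4.53, 4.90 and 6.40 CPM, both below their controls. Wscd2 had 13.6, 13.6 and 12.3 CPM against 2.94, 3.79 and 6.71 CPM (log2 fold change -1.55, SE 0.29), and 3.77, 3.73 and 3.65 CPM in the cKO libraries. Grin3a, an NMDA receptor subunit, had 20.8, 18.8 and 16.5 CPM against 9.07, 10.7 and 4.31 CPM (log2 fold change -1.21, SE 0.31). The heterozygote and cKO comparisons share their control libraries. Olfml2a, an extracellular matrix protein, showed a smaller and tighter difference, with 77.1, 79.9 and 79.4 CPM against 53.6, 51.9 and 54.0 CPM (log2 fold change -0.56, SE 0.08).

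The 4 genes that passed the adjusted test in edgeR were of another kind, with levels that were near 0 in 1 group. Gm5898, a processed pseudogene on chromosome 7, fell from 10.7, 6.80 and 13.4 CPM to 0.385, 0.247 and 0.335 CPM (log2 fold change -4.98, SE 0.35, adjusted p = 0.0135). Gm10320, a gene of chromosome 13 annotated as protein coding, fell from 8.34, 10.305 and 17.3 CPM to 0.216, 0.0771 and 0.194 CPM (log2 fold change -6.19, SE 0.46, adjusted p = 0.0135). Vcp-rs, a processed pseudogene of Vcp on chromosome X, fell from 115, 149 and 222 CPM to 1.56, 0.231 and 1.34 CPM (log2 fold change -7.28, SE 0.63, adjusted p = 0.0188). None of these 3 values overlapped, and the cKO libraries had 214, 118 and 154 CPM of Vcp-rs, within the range of the controls. Gm5898 also varied within other groups, from 0.133 to 10.45 CPM among the OMPCre heterozygotes. The calls were lost for Gm5898 without control 1 (adjusted p = 0.0521) and for Gm10320 without control 2 (adjusted p = 0.0688). For Vcp-rs they were lost without heterozygote 3 (adjusted p = 0.0694) and without control 1, 2 or 3 (adjusted p = 0.0748, 0.118 and 0.0735).

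Vcp itself, an ATPase of protein degradation on chromosome 4, had 312, 283 and 156 CPM in the controls and 416, 418 and 414 CPM in the heterozygotes (adjusted p = 0.812). The sum of Vcp and Vcp-rs was 426.6, 431.8 and 377.9 CPM in the controls and 417.4, 417.7 and 415.0 CPM in the heterozygotes. The 2 genes share sequence, and the split of reads between them is uncertain. Gm14448, a processed pseudogene at chrX:5885743-5885952, rose from 0 counts in every control to 7.53, 5.24 and 5.79 CPM in the heterozygotes (adjusted p = 0.0141), at least 79.1-fold higher when the controls are set at a floor of 3 counts per library. It was also at 0 in the 3 cKO libraries. In the OMPCre line it had 0, 0.0281 and 0.0925 CPM in the controls and 8.78, 11.9 and 12.1 CPM in the heterozygotes (adjusted p = 0.0328). Both heterozygote groups thus had Gm14448, and these libraries of Smad4flox/flox genotype had at most 0.0925 CPM. Its call in the AP-2εCre line was made with each of the 6 libraries left out in turn, and was lost with the library series as covariate (adjusted p = 0.1) and with a replicate block (adjusted p = 0.35).

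**Figure D4:**
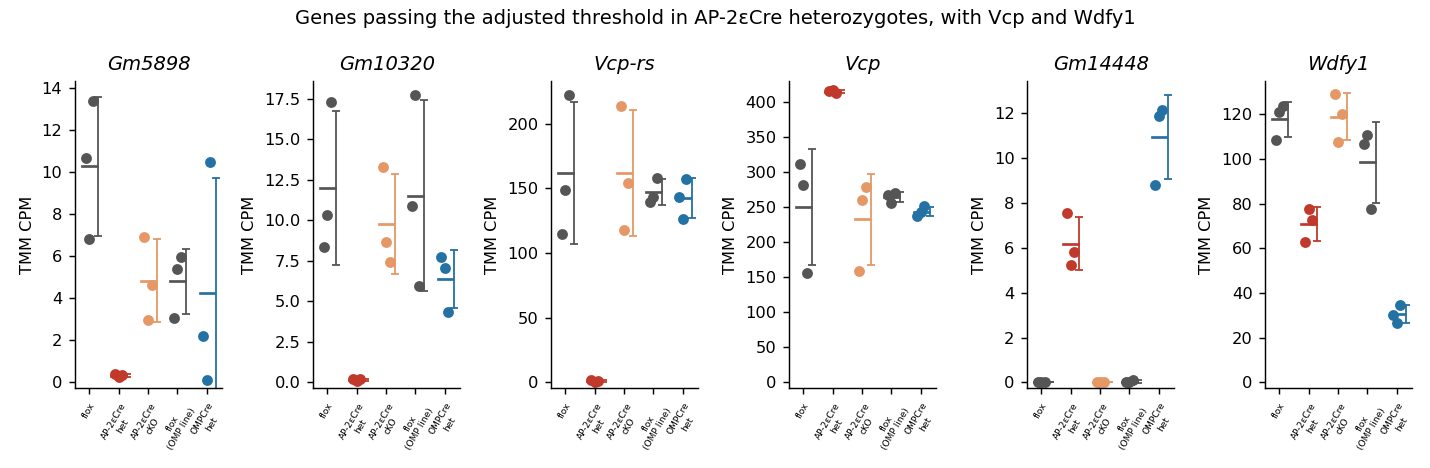
Level (TMM CPM) of the 4 genes that passed the adjusted test in edgeR (Gm5898, Gm10320, Vcp-rs, Gm14448) and of Vcp and Wdfy1, in each library of the AP-2εCre line and of the OMPCre line's flox and heterozygote groups; points are libraries, lines means and bars SD, and each panel has its own scale. Gm5898, Gm10320 and Vcp-rs are near 0 in the AP-2εCre heterozygotes, and Gm14448 is present in both heterozygote groups and near 0 in the flox and cKO groups.

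By a rule of at least 50 counts in every library of 1 group and at most 5 in every library of the other, 1 gene was present in the controls only and 3 in the heterozygotes only. Gm6685 had 3.18, 1.69 and 3.51 CPM in the controls and 0 counts in the heterozygotes, at least 52.7-fold lower. AC129179.3, a processed pseudogene, had 0 counts in the controls and 3.11, 5.98 and 9.44 CPM in the heterozygotes, at least 79.0-fold higher (adjusted p = 0.11), and 8.87, 4.97 and 8.41 CPM in the OMPCre heterozygotes. Gm10359 had 0 counts in the controls and 6.02, 55.6 and 62.0 CPM in the heterozygotes, and it ranged from 0 to 32993 counts among the OMPCre heterozygotes. The same rule, applied to the OMPCre line, gave 5 and 6 genes. Genes with at least 50 counts in some libraries of a group and at most 5 in others of the same group were far more numerous, with 169 among the 3 controls (105 of them pseudogenes) and 294 among the 3 heterozygotes (141 pseudogenes). The mice of 1 group thus differed among themselves at many such genes.

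Genes near the targeted loci included none that passed the adjusted test. Within 2 Mb of Tfap2e 51 genes were tested, and 13.7% had groups that did not overlap in either direction. This was 7.63% of 118 genes within 5 Mb and 9.97% of 301 within 10 Mb, and chromosomes as a whole ranged from 7.36% to 12.1%. Around Smad4 the share was 11.8% of 17 genes within 2 Mb, 17.1% of 41 within 5 Mb and 10.42% of 96 within 10 Mb. From the narrowest to the widest of these windows, 0, 1 and 1 genes were lower and 2, 6 and 9 higher. The OMPCre line, whose controls are floxed at Smad4 too, had 17.6%, 18.6% and 16.3% in these windows. In the windows around Tfap2e the OMPCre line had 7.55%, 9.02% and 7.14%. Of all genes tested, 5.03% were lower and 4.84% higher without overlap in the AP-2εCre line, and 5.07% and 6.52% in the OMPCre line.

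In the OMPCre line, 8 of 18124 genes (0.0441%) passed the adjusted test between heterozygotes and controls, 4 in each direction. Wdfy1, an endosomal adaptor protein gene of chromosome 1, fell there to 30.4, 26.8 and 34.7 CPM from 107, 111 and 77.7 CPM (adjusted p = 0.0486). In the AP-2εCre line it was lower too, with 109, 121 and 124 CPM in the controls and 62.7, 77.5 and 72.6 CPM in the heterozygotes (log2 fold change -0.73, SE 0.11, adjusted p = 0.256), while the cKO libraries had 129, 108 and 120 CPM. Of 17553 genes tested in both lines, 75 were lower without overlap in both, 8.53% of the 879 in the AP-2εCre line and 8.33% of the 900 in the OMPCre line. For genes that were higher the number was 91, or 10.8% of 842 and 8.02% of 1135. Those separated in opposite directions numbered 38 that were lower in the AP-2εCre line (4.32% of the 879) and 34 that were higher there (4.04% of the 842). Of all genes tested in the OMPCre line, 5.07% were lower and 6.52% higher without overlap. In the AP-2εCre line these shares were 5.03% and 4.84%. The test of the difference between the lines called 6 of 18938 genes (0.0317%), and none was a V2r, H2-Mv or basal identity gene.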

How the data were processed

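RNA of whole VNO was sequenced single-end at 75 bases from directional polyA libraries. Per the labels, salmon 0.14.0 and the mm10/GRCm38 build were used. The authors deposited per transcript an estimated count, TPM and an effective length. Estimated counts were summed here per gene with GENCODE vM21 names (116072 of 116248 transcripts matched) and rounded. Genes kept by filterByExpr were tested in edgeR 4.0.16 (R 4.3.3) with TMM, a quasi-likelihood F test and Benjamini-Hochberg adjustment. CPM were scaled over 18 libraries, and the deposited TPM served to compare levels between genes and in 1 alternative. The difference between the lines was an interaction contrast over 12 libraries. DESeq2 1.42.0, other filters, other sample sets, a library-series covariate, length-scaled TPM, transcripts, a replicate block and single libraries left out were alternatives. Leaving out 2 heterozygotes together, and counts of separated genes without single libraries, were added after seeing the data. No pair of the 6 libraries agreed within sampling noise.

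Genes were named by a rule: Tfap2e and Smad4, called genes, otherwise the genes of smallest p with at least 1 CPM and no overlap (up to 12 each way), the 4 highest members of each list, and all basal, apical and AP-2 genes. Other single genes, among them the family C, H2-Mv and further V2r genes, neighbouring gene pairs and Vcp, were chosen after their values were seen. The members and lists were chosen with earlier results of these data known. Scripts were tested on simulated data. Libraries held 43385516 to 71511460 estimated counts as deposited.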

Additional observations from a re-analysis of the deposited data

Results flagged for a closer look

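For 6 genes the difference between heterozygotes and Smad4flox/flox controls was itself different in the AP-2εCre and OMPCre lines, by edgeR's test of the difference over 12 libraries. With a replicate block none of these calls was made. In the AP-2εCre line Gm6685 had 3.18, 1.69 and 3.51 CPM in the controls and 0 in the heterozygotes (adjusted p = 0.00412 for the difference between lines). Vcp-rs had 115, 149 and 222 CPM against 1.56, 0.231 and 1.34 CPM (adjusted p = 0.00406). Gm10320 had 8.34, 10.305 and 17.3 CPM against 0.216, 0.0771 and 0.194 CPM (adjusted p = 0.0238). In these 3 the separation was in the AP-2εCre line. In the other 3, all processed pseudogenes, it was in the OMPCre line. Gm2223 was at 0 in the OMPCre line's controls and had 12.5, 12.7 and 14.5 CPM in its heterozygotes (adjusted p = 0.00554). Rps15a-ps8 had 9.75, 12.6 and 11.4 CPM against 0.0156, 0.0831 and 0.0439 CPM (adjusted p = 0.00501). Gm10167 had 1.85, 3.45 and 3.98 CPM against 0, 0.0332 and 0.0292 CPM (adjusted p = 0.0419).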

How the results depend on the processing

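Depth was not matched between the groups, and the number of calls depended on the fit. Against 4 called genes in the AP-2εCre comparison, edgeR called 33 with 18 libraries, 9 with the 9 libraries of the line, 8 with a filter of 1 count in total, 2 with 10 counts in every library, 2 with the library series as covariate and 0 among transcripts (1513 at an unadjusted p under 0.05), and DESeq2 called 178. At an adjusted p of 0.1 the edgeR count was 5. Leaving out single libraries gave 3 to 28 calls, with 17, 28 and 10 without heterozygotes 1, 2 and 3. In the OMPCre line the 8 calls became 144 with DESeq2 and 0 to 15 with single libraries left out (15 without control 3, and 0 to 2 without any of the other 5). For the difference between the lines the 6 calls became 91 with DESeq2. All 4 called genes were kept in the fit of 9 libraries, with DESeq2 and with a filter of 1 count, 3 with 18 libraries (Gm5898 lost, adjusted p = 0.0735) and with length-scaled TPM (Vcp-rs lost, adjusted p = 0.0578), and 2 with a filter of 10 counts, with the library series and with a replicate block. Gm14448, with 0 counts in every control, and Gm10320, under 10 counts in heterozygote 2, could not pass the filter of 10 counts. Their loss there was thus fixed before any test. Tfap2e passed with 18 libraries (log2 fold change -1.03) and with DESeq2 (-1.04). The cause of these differences was not tested.

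The deviations of same-numbered libraries correlated at 0.0553, -0.131 and 0.165 in the AP-2εCre line and at 0.239, 0.0991 and 0.303 in the OMPCre line. Since not every pair of a line was over 0.1, the numbers were not taken to pair the samples, although in the OMPCre line all 3 were positive. With a replicate block edgeR called 5 genes in the AP-2εCre line, 2 in the OMPCre line and 0 for the difference between the lines.

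With single libraries left out, log2 fold changes ranged from -0.58 to 0.000107 for Smad4, -0.28 to 0.32 for B2m, -0.16 to 0.00973 for Gnai2, -0.0428 to 0.12 for Nrp2, -0.26 to 0.0109 for Omp and -0.44 to 0.16 for Trpc2. For the summed level of V1r the log2 ratio ranged from -0.0703 to 0.15, and the median log2 fold change of apical identity ranged from -0.10 to -0.0121, with 0.00271 under length-scaled TPM. With 100 and 10 counts as limits, 0 genes were present in the controls only. With heterozygote 1 as the only heterozygote, 108 of 119 V2r and 9 of 9 H2-Mv genes were below every control, against 27.2% of all genes. So were 71 of 169 V1r genes (42.0%).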

Other observations

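Some single genes of secreted proteins, chosen after their values were seen, differed between the groups with large spread between mice. Bpifb9b, a BPI-fold protein of nasal glands, had 102, 62.8 and 14.4 CPM in the controls and 756, 2595 and 713 CPM in the heterozygotes (log2 fold change 4.51, adjusted p = 0.295 in edgeR). Chil1, a chitinase-like protein, had 10.299, 13.4 and 15.4 CPM against 73.7, 38.1 and 31.3 CPM (log2 fold change 1.87), and the OMPCre heterozygotes, at 29.7, 36.3 and 29.9 CPM, were also above their controls at 10.63, 20.2 and 14.9 CPM. The α1-antitrypsin family genes Serpina1b and Serpina1e differed in opposite directions, with log2 fold changes of 4.37 and -0.97. These paralogs are near-identical, so the split of reads between them is uncertain.

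Some separated genes lay next to each other. Calr4 and its neighbour Osbpl9, 32.2 kb apart on chromosome 4, were both lower, and Osbpl9, which encodes a lipid transfer protein, had 215, 198 and 204 CPM in the controls and 122, 146 and 140 CPM in the heterozygotes (log2 fold change -0.59, SE 0.11, adjusted p = 0.295 in edgeR). Suox and Ikzf4, 23.9 kb apart, were also both lower, but of 41 genes tested in the 500 kb window around them 4 were lower and 3 higher without overlap. Suox had 39.1, 41.6 and 38.4 CPM against 24.8, 27.0 and 25.9 CPM, and Ikzf4 had 28.8, 23.7 and 24.9 CPM against 10.47, 14.5 and 17.1 CPM. Colgalt1 and Tmem221, 52.1 kb apart, were both higher, with Colgalt1 at 41.6, 48.9 and 41.3 CPM against 71.4, 66.2 and 60.7 CPM. Over all tested genes, the next tested gene was separated in the same direction for 80 of 896 genes that were lower (8.93%) and 64 of 862 that were higher (7.42%), against 5.03% and 4.84% of all genes. The 896 include 59 V2r genes, many of them neighbours in clusters, and the share without V2r genes was not counted.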
